A study of Rattus norvegicus with 8 samples.

Results

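The subject is a group of 7 solute carrier genes, Slc4a4, Slc39a12, Slc7a8, Slc2a9, Slc17a5, Slc11a1 and Slc35a2, in cultured glia with few or many lipid droplets. They were chosen by gene name from the genes that the authors had called different between the groups, and all 7 were found among 1187 such genes. The glia came from hippocampi of P0 rats (postnatal day 0) and were cultured for 3 to 5 days with 10% fetal bovine serum. They were sorted by fluorescence after labelling with Nile red, a dye of neutral lipid. LD-low denotes the 4 samples of glia with few droplets and LD-high the 4 samples of glia with many, and the labels give no genotype or drug for either. The labels number the samples but name no animal or culture for them, so the authors' p-values may measure technical spread alone.

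Solute carriers are membrane proteins that move small molecules and ions across the plasma membrane or the membranes of organelles. In the brain, astrocytes use them to buffer acid and to take up metals and amino acids. Lysosomes, the organelles that digest macromolecules, use them to release the products of digestion and to move metals. The Golgi apparatus uses another branch of the superfamily to import the activated sugars from which glycans are built. The 7 genes belong to 7 families of the superfamily and cover each of these tasks.

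Of the 7 carriers, 6 were higher and 1 was lower in LD-high glia in the authors' deposited table. Of all 12981 genes that the authors had tested, 4.92% were called higher and 4.22% lower. Since the carriers were taken from the called genes, their being called is no result. The largest change was in Slc11a1, a metal transporter of phagocytes, which rose 17.01-fold as computed from the levels in the authors' deposited table. The urate transporter gene Slc2a9 rose 4.04-fold and the lysosomal sialic acid exporter gene Slc17a5 rose 2.24-fold on the same levels. The other 3 that rose, Slc7a8, Slc39a12 and Slc4a4, did so by factors of 1.72 to 1.76. Their products work at the plasma membrane. The Golgi UDP-galactose transporter gene Slc35a2 was the exception and fell 2.43-fold, again computed from the levels in the authors' deposited table. The deposited table holds 1 level per gene and group, given here as FPKM, the unit of the Cuffdiff program, in which fragment numbers are scaled to transcript length and sequencing depth. No level carries an SD or n, no value of a single sample was used, and sample depths are unknown.

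For 6 of the 7 carriers the RefSeq table used here (rat build GRCr8) holds the bases before a transcription start. Slc11a1 has no such entry. It was used by gene symbol, and its coordinates are not those of the rn6 build of the deposited table. The windows of 3 genes are shown because they lie at or near the first annotated start of their gene, and they are trimmed to the bases before it. Before trimming, these windows reached 54 bases (Slc39a12), 0 bases (Slc7a8) and 70 bases (Slc17a5) past that start. They are written 5′ to 3′ on the strand of the gene, with each CpG dinucleotide in capitals.
Slc39a12 (GRCr8 chr17:82262107-82262302, plus strand): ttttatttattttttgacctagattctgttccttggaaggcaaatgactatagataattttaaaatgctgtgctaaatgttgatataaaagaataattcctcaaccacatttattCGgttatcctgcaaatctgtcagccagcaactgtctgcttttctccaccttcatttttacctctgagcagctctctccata
Slc7a8 (GRCr8 chr15:32212716-32212965, minus strand): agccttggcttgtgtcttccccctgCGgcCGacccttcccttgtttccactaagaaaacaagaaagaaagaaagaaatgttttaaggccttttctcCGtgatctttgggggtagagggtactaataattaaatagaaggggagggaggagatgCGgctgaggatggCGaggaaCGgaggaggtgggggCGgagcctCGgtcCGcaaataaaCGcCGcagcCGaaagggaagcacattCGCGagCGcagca
Slc17a5 (GRCr8 chr8:88309735-88309914, minus strand): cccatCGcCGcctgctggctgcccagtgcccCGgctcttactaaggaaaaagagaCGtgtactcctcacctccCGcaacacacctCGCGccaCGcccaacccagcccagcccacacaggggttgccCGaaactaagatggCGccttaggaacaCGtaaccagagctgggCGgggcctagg
The Slc39a12 window had 1 CpG in 196 bases and a G+C content of 34.7%. The Slc7a8 window had 15 CpG in 250 bases and 53.6% G+C, and the Slc17a5 window 12 CpG in 180 bases and 63.9% G+C. Over the 33469 windows of 250 bases in that table the median was 5 CpG and 51.2% G+C. Those windows were taken without a filter for protein-coding genes, whereas the carriers are all protein-coding. In the untrimmed windows of 250 bases the 6 carriers ranged from 1 CpG in Slc39a12 to 42 in Slc4a4. The window of Slc4a4 belongs to a start 109097 bases inside the gene span. For Slc2a9 the start lies 20306 bases inside and for Slc35a2 315 bases inside. Windows at such inner starts need not describe the first start of their gene. 3 short motifs were searched on both strands of the 6 untrimmed windows. They were the E-box CACGTG, the core of the sites of lysosomal gene regulators, the PU box GAGGAAG of myeloid transcription factors, and the antioxidant element TGACNNNGC. None of the 6 windows held any of them, and Slc11a1, which has no window, was not searched. Of all 33469 windows 5.59% held the E-box, 10.2% the PU box and 10.1% the antioxidant element. The absence of these letters from a window says nothing of the factors themselves.

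Slc11a1 encodes NRAMP1, which carries iron, manganese and other divalent metals across the phagosome and lysosome membrane of macrophages. Its level was 0.626 FPKM in LD-low and 10.7 FPKM in LD-high glia in the authors' deposited table (log2 change 4.09, p = 0.00045, q = 0.0102). Its level was low in droplet-poor glia, with Slc2a9 alone below it among the 7, and it was the fifth of the 7 in droplet-rich glia. Its change exceeded that of 98.6% of the other genes called higher and above 0 in both groups. Genes of similar low level also tended to have large called changes. Among 57 other genes called higher whose LD-low level was within 2-fold of that of Slc11a1, the smallest log2 change was 1.45 and the median 2.95, and 94.7% had a smaller change than Slc11a1. On the log2(FPKM + 1) scale the change of Slc11a1 was 2.84. The locus (ENSRNOG00000014956, rn6 chromosome 9, 81655629 to 81666706) lies 6.05 kb from the nearest other called gene, Ctdsp1, which was lower in LD-high glia (log2 change -0.84 in the authors' deposited table).

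Markers of microglia and macrophages, the cells in which Slc11a1 is best known, moved with it. Of 22 such marker genes 12 were called higher and 0 lower in the authors' deposited table. This was a share of 54.5%, beside 4.92% of all tested genes. The 12 had a median log2 change of 3.25 and a range from 1.96 to 4.41. The summed level of these 12 was 50.8 FPKM in LD-low and 529 FPKM in LD-high glia, and none was at 0. Slc11a1 lay within their range, above 11 of the 12. The leukocyte antigen gene Ptprc reached nearly the same levels as Slc11a1, 0.735 FPKM in LD-low and 10.6 FPKM in LD-high glia in the authors' deposited table. The part of these cells in the change of Slc11a1 was not tested. In such bulk samples more cells of a type and more RNA per cell cannot be told apart. Of 24 genes of iron handling, Slc11a1 and Hmox1, the haem-degrading enzyme, were called higher and 0 lower. Without Slc11a1 the share called higher was 4.35% (1 of 23 genes), beside 4.92% of all tested genes. In the authors' deposited table Hmox1 stood at 14.7 FPKM in LD-low and 41.2 FPKM in LD-high glia (q = 0.00187). The iron importer gene Tfrc, the iron exporter gene Slc40a1, the ferritin heavy chain gene Fth1 and Slc11a2, the close relative of Slc11a1, were not among the called genes. Genes outside the deposited table either did not pass or were not tested. List shares given here count all genes of a list, tested or not, while 4.92% and 4.22% are shares of tested genes. A list's share among its tested genes may thus be higher than the one given. Of all RefSeq protein-coding genes, tested or not, 4.60% were called in either direction when matched by symbol.

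Slc17a5 encodes sialin, which exports sialic acid, freed from glycoproteins and glycolipids, out of the lysosome together with protons. Its level was 8.21 FPKM in LD-low and 18.4 FPKM in LD-high glia in the authors' deposited table (log2 change 1.17, p = 0.0001, q = 0.00332). It was the carrier of the 7 with the smallest q, and 68.03% of the other genes called higher had a larger q. Its size of change was ordinary among called genes, since 52.4% of the other genes called higher and above 0 in both groups changed less. It lay below all 12 called microglia and macrophage markers and, of the called astrocyte markers that are not carriers of this group, between Acsbg1 (log2 change 0.95) and Apoe (1.39). The locus (ENSRNOG00000009330, rn6 chromosome 8, 85891257 to 85926450) has no other called gene within 418.6 kb.

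Genes that act on sialic acid were examined beside Slc17a5. Of 32 genes for the synthesis, attachment, removal and breakdown of sialic acid, 3 were called higher and 0 lower in the authors' deposited table. Without Slc17a5, which was taken from the called genes, the share called higher was 6.45% (2 of 31 genes), beside 4.92% of all tested genes. Npl, the lyase that breaks sialic acid down in the cytosol, was at 5.96 FPKM in LD-low and 23.4 FPKM in LD-high glia in the authors' deposited table (log2 change 1.98, q = 0.00187). Ctsa, the lysosomal protein that protects the sialidase, was at 32.3 FPKM and 62.1 FPKM (log2 change 0.94, q = 0.0257 in the same table). The lysosomal sialidase gene Neu1, the synthesis genes Gne, Nans, Nanp and Cmas, the Golgi importer gene Slc35a1 and all sialyltransferase genes of the list were not among the called genes. Of 25 genes for efflux from the lysosome, 3 were called, Slc11a1, Slc17a5 and Npc2, and all 3 were higher. Npc2, which carries cholesterol inside the lysosome, was at 90.01 FPKM in LD-low and 189 FPKM in LD-high glia in the authors' deposited table (log2 change 1.07, q = 0.00187). Without Slc11a1 and Slc17a5 the share of this list called higher was 4.35% (1 of 23 genes). The genes for cystine efflux (Ctns) and for cholesterol efflux (Npc1) were not among the called genes.

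**Figure D1:**
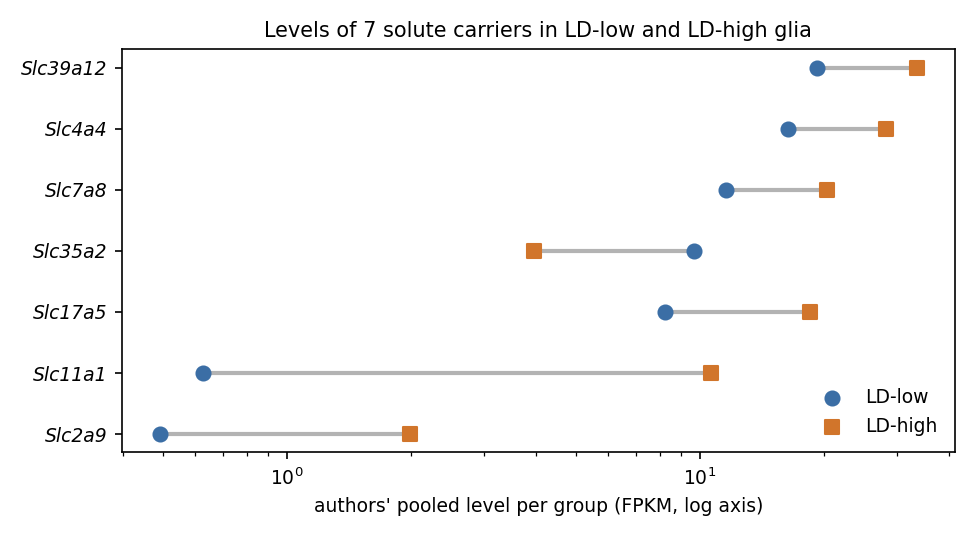
Levels of the 7 carriers as the authors' pooled FPKM per group on a log axis, with a circle for LD-low, a square for LD-high and a line joining them. Slc11a1 has the longest line (0.626 to 10.7 FPKM), the lines of Slc39a12, Slc4a4 and Slc7a8 are of similar short length, and Slc35a2 is the carrier whose LD-high level is the lower one.

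Slc39a12 encodes ZIP12, a zinc importer that is abundant in astrocytes. Its level was 19.2 FPKM in LD-low and 33.5 FPKM in LD-high glia in the authors' deposited table (log2 change 0.80, p = 0.0025, q = 0.0332). It had the highest level of the 7 in both groups. Slc4a4 encodes NBCe1, the sodium bicarbonate cotransporter with which astrocytes regulate pH. Its level was 16.4 FPKM in LD-low and 28.1 FPKM in LD-high glia in the authors' deposited table (log2 change 0.78, p = 0.0029, q = 0.0371). Slc7a8 encodes LAT2, an exchanger of neutral amino acids that works as the light chain of a pair with the protein of Slc3a2. Its level was 11.6 FPKM in LD-low and 20.3 FPKM in LD-high glia in the authors' deposited table (log2 change 0.81, p = 0.0031, q = 0.0386).

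These 3 carriers kept the same order of levels in both groups and had nearly the same relative change. The changes were small for called genes. Of the other genes called higher and above 0 in both groups, 9.34% changed less than Slc4a4, 11.1% less than Slc39a12 and 12.2% less than Slc7a8. The smallest log2 change among all genes called higher was 0.66. Over the levels of both groups, Slc4a4 and Slc39a12 were each other's nearest called solute carrier, with a distance of 0.34 on the log2 scale over 2 groups. For Slc7a8 the nearest was Slc17a5, at 0.51. Such a likeness rests on 2 levels per gene and is a description.

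The carriers are themselves in part astrocyte markers. Of 20 astrocyte marker genes 4 were called, all higher, and 2 of those were Slc39a12 and Slc4a4. Without these carriers the share called higher was 11.1% (2 of 18 genes), beside 4.92% of all tested genes. In the authors' deposited table the others were Acsbg1, which activates long fatty acids (log2 change 0.95), and Apoe, an apolipoprotein that microglia and macrophages also make (1.39). No call was made for Gfap, Aqp4, Aldh1l1, Slc1a2 or Slc1a3, of which the last pair encodes glutamate transporters. Slc39a12, Slc4a4 and Slc7a8 changed less than both Acsbg1 and Apoe and less than all 12 microglia and macrophage markers. They also changed less than all 6 called fibroblast, meningeal and mural markers and all 3 called endothelial markers. The summed level of the 6 was 72.5 FPKM in LD-low and 225 FPKM in LD-high glia, and that of the 3 was 13 FPKM and 41.01 FPKM. The part of any cell type in the changes of these 3 carriers was not tested.

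Other genes with the same substrates were mostly absent from the called genes. Of 28 genes of zinc transport and storage, Slc39a12 was the 1 called gene, and none of the other importers, of the exporters of the Slc30 family or of the metallothioneins was called. Of 20 genes of acid, bicarbonate and lactate transport and carbonic anhydrases, Slc4a4 was the 1 called gene. Of 20 genes of amino acid exchange, both Slc7a8 and Slc7a11 were called higher. Slc7a11, the light chain of the cystine and glutamate exchanger, was at 4.19 FPKM in LD-low and 9.99 FPKM in LD-high glia in the authors' deposited table (log2 change 1.25, q = 0.00187). Slc3a2, whose protein pairs with both, and Slc7a5, the relative of Slc7a8 with like substrates, were not among the called genes. Slc39a12, Slc4a4 and Slc7a8 were taken from the called genes. Without them 0 of 27 zinc genes, 0 of 19 acid and bicarbonate genes and 1 of 19 amino acid exchange genes (5.26%) were called higher. The share was 4.92% of all tested genes, whereas these lists may hold genes that were not tested.

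The Slc39a12 locus (ENSRNOG00000025639, rn6 chromosome 17, 81455955 to 81541759) lies 22.2 kb from Mrc1, a macrophage receptor gene that was higher too (0.463 to 3.15 FPKM, log2 change 2.77, in the authors' deposited table). The Slc4a4 locus (ENSRNOG00000003134, rn6 chromosome 14, 20479323 to 20920286) spans 441 kb, and the Slc7a8 locus (ENSRNOG00000014311, rn6 chromosome 15, 33369216 to 33428973) spans 59.8 kb. In the GRCr8 RefSeq table an uncharacterised noncoding RNA gene overlaps Slc39a12, 2 overlap Slc7a8, and a pseudogene overlaps each of Slc4a4 and Slc17a5. Whether the counting used strand is not given in the sources used here, so reads of such partners cannot be told apart from those of the carriers.

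Slc2a9 encodes GLUT9, a relative of the glucose transporters that moves urate. Its level was 0.491 FPKM in LD-low and 1.98 FPKM in LD-high glia in the authors' deposited table (log2 change 2.01, p = 0.0032, q = 0.0395). It had the lowest level of the 7 in both groups and the largest q. On the log2(FPKM + 1) scale its change was 1.001, near that of Slc17a5 (1.08) and below that of Slc11a1 (2.84). It was above those of Slc39a12 (0.77), Slc7a8 (0.76) and Slc4a4 (0.75) on that scale. The added 1 FPKM exceeds the LD-low level of Slc2a9 and so shrinks its change strongly. Among 51 other genes called higher whose LD-low level was within 2-fold of that of Slc2a9, the median log2 change was 3.12, and 5.88% had a smaller change. Its change lay above 1 of the 12 called microglia and macrophage markers and above 4 of the 6 fibroblast, meningeal and mural markers, and the part of those cells was not tested. Of 17 genes of hexose and urate handling Slc2a9 was the 1 called gene, so the glucose transporter genes Slc2a1 and Slc2a3 and the urate-forming enzyme gene Xdh were not among the called genes. The locus (ENSRNOG00000005302, rn6 chromosome 14, 77067503 to 77192702) has no other called gene within 187.6 kb.

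**Figure D2:**
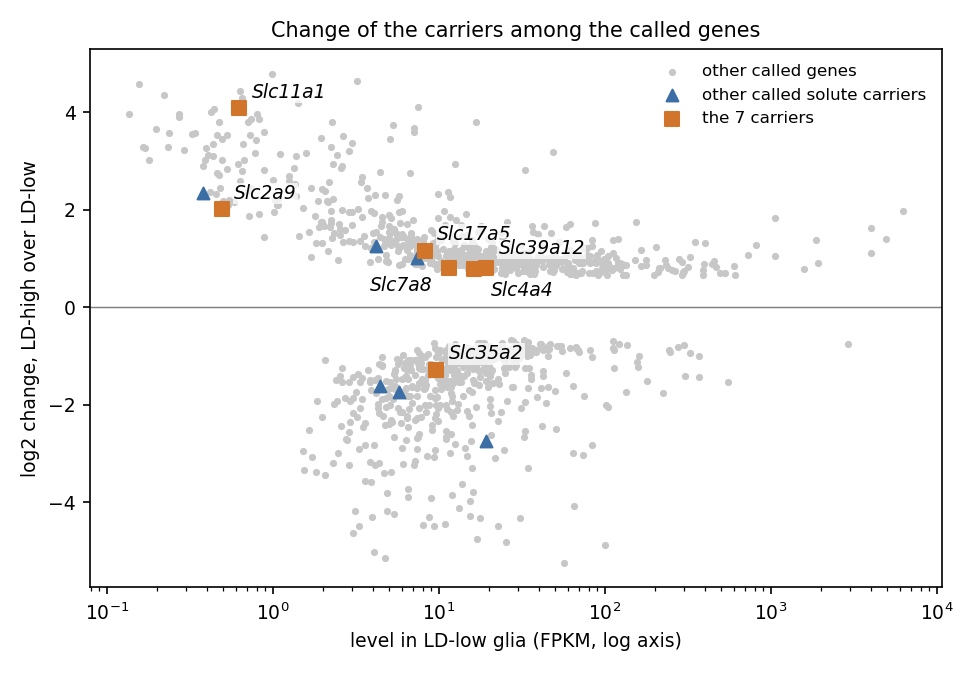
Log2 change (LD-high over LD-low) against the LD-low level in FPKM on a log axis, for the called genes above 0 in both groups, with the 7 carriers as squares and other called solute carriers as triangles. Slc11a1 (4.09) and Slc2a9 (2.01) lie among low-level genes, where small changes were not called (within 2-fold of either level the smallest was 1.45), and Slc4a4, Slc39a12 and Slc7a8 lie at the lower edge of the genes called higher.

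Slc35a2 encodes the transporter that brings UDP-galactose into the Golgi apparatus for the building of glycans. Its level was 9.65 FPKM in LD-low and 3.97 FPKM in LD-high glia in the authors' deposited table (log2 change -1.28, p = 0.0025, q = 0.0332). It was the 1 carrier of the 7 with the higher level in droplet-poor glia. Of the other genes called lower and above 0 in both groups 44.4% changed less. Of 31 genes of nucleotide sugar supply and galactose transfer, Slc35a2 was the 1 called gene. Without it 0 of 30 were called, while 4.22% of all tested genes were called lower. Slc35a1, Slc35a3 and the galactosyltransferase genes B4galt1 to B4galt7 were not among the called genes. Neuron markers were lower in the same comparison. Of 18 such genes 0 were called higher and 12 lower in the authors' deposited table. This was a share called lower of 66.7%, beside 4.22% of all tested genes. The 12 had a median log2 change of -3.90 and a range from -5.25 to -0.996. Their summed level was 610 FPKM in LD-low and 129 FPKM in LD-high glia. Slc35a2 changed less than 11 of these 12, and 2 of 12 oligodendrocyte lineage markers were lower too (median log2 change -2.48). The part of those cells in the change of Slc35a2 was not tested. The locus (ENSRNOG00000024801, rn6 chromosome X, 15453186 to 15461713) has no other called gene within 3262 kb.

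The order of the 7 carriers by level differed between the groups. In LD-low glia Slc35a2 was the fourth most abundant of the 7, with 15.4 times the FPKM of Slc11a1, and in LD-high glia Slc11a1 had 2.68 times the FPKM of Slc35a2. Slc35a2 and Slc17a5 were close in LD-low glia, with Slc35a2 at 1.17 times the level of Slc17a5, and in LD-high glia Slc17a5 had 4.64 times the level of Slc35a2. The level of Slc39a12 was 30.7 times that of Slc11a1 in LD-low and 3.14 times in LD-high glia. The spread between the highest and the lowest carrier, Slc39a12 and Slc2a9, was 39.1-fold in LD-low and 16.9-fold in LD-high glia. Without a spread between samples, it cannot be said which neighbours in these orders differ.

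**Figure D3:**
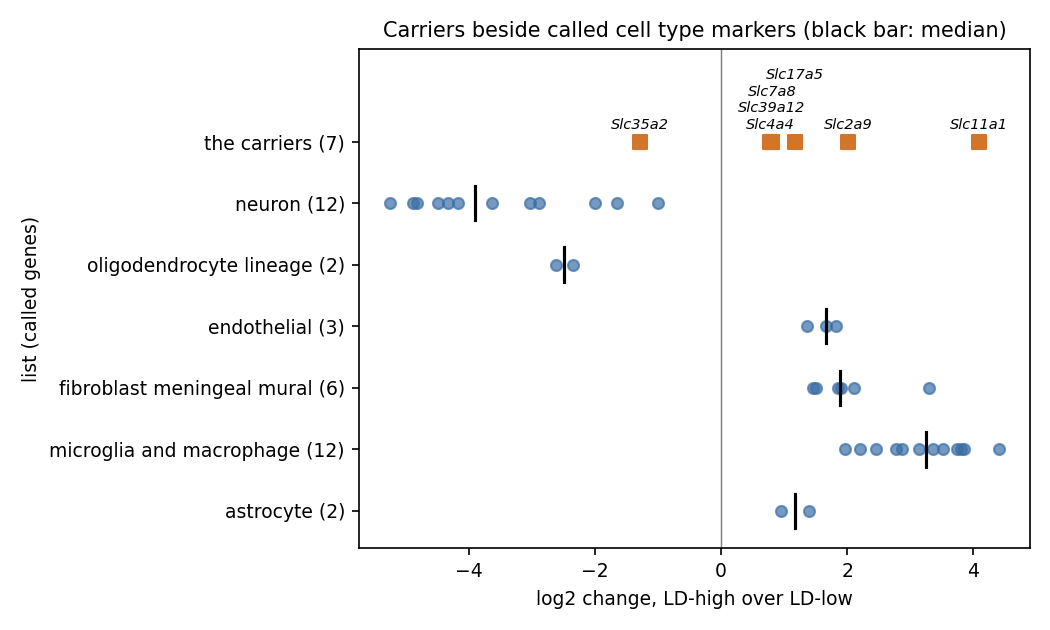
Log2 change (LD-high over LD-low) of the 7 carriers (squares) above the called genes of 6 marker lists (circles, with the median as a black bar and the number of called genes in brackets), the carriers being left out of the astrocyte list. Slc11a1 (4.09) lies among the microglia and macrophage markers, Slc35a2 (-1.28) lies near the end of the neuron markers that changed least, and Slc4a4, Slc39a12 and Slc7a8 lie below the called markers of every list that rose.

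How many of the 7 carriers count as called depends on the threshold. At q below 0.01, which 2.29% of tested genes passed as higher and 1.98% as lower, Slc17a5 alone kept its call, and Slc11a1 missed it with q = 0.0102. With a log2 change of at least 1 required as well as q below 0.05, 3 carriers were higher (Slc11a1, Slc2a9 and Slc17a5) and Slc35a2 was lower, beside 3.14% and 3.29% of tested genes. With at least 5 FPKM in the higher group, Slc2a9 was left out, which gave 5 higher and 1 lower, beside 4.48% and 3.50% of tested genes.

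Among solute carriers as a whole the 7 were one part of 14 called genes. Of 367 protein-coding rat genes with a solute carrier symbol in RefSeq, 14 were called in the authors' deposited table (3.81%), beside 4.60% of all RefSeq protein-coding genes when matched by symbol in the same way. Of the 14, 9 were higher and 5 lower, so that 64.3% were higher beside 53.8% of all called genes. Their median log2 change was 0.81 over the 13 above 0 in both groups, beside 0.77 over all 1161 such called genes. The 3 other carriers that rose were Slc6a2, the noradrenaline transporter gene (0.379 to 1.93 FPKM), Slc7a11, and Slc18a2, the vesicular monoamine transporter gene (7.34 to 14.9 FPKM), as the authors' deposited table lists them. Among the 4 others that fell were Slc1a1, a neuronal glutamate transporter gene (19.2 to 2.88 FPKM), Slc8a3, a sodium and calcium exchanger gene (4.41 to 1.44 FPKM) and Slc32a1, the vesicular GABA transporter gene, which was at 1.42 FPKM in LD-low and is listed at 0 in LD-high glia of the authors' deposited table. The nearest called solute carrier over the levels of both groups was Slc6a2 for Slc2a9 (distance 0.37), Slc18a2 for Slc17a5 (0.35), Slc2a9 for Slc11a1 (2.45) and Slc1a1 for Slc35a2 (1.09), so that Slc11a1 had no near match.

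The authors also deposited lists of biological processes over-represented among the called genes. Of 229 terms for the higher genes 1 named transport, "positive regulation of transport" (Bonferroni-adjusted p = 0.0252 in the authors' deposited table), and of 104 terms for the lower genes 0 did. No term in either list named a lysosome, a vacuole or homeostasis. These lists do not say which genes stand behind a term.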

How the data were processed

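Per the labels' protocols, RNA was purified with the PicoPure kit and the cDNA was made by an amplifying kit (Ovation RNA-seq), which can distort levels. Bowtie2, Cuffdiff and the rn6 build are named without versions in the submitters' processing notes. The annotation, the strand setting and read filters are not stated there. For each called gene the authors deposited 1 pooled level per group with their log2 fold change, p-value and q-value (per the file headers). No unit is named, and the deposited levels are taken as FPKM because Cuffdiff reports FPKM. The gene sheets are used as the authors' calls (q below 0.05), and no test of expression was run here. The number of per-sample columns was 0. Folds and log2 changes given here were computed from the deposited levels, since some log2 cells of the lower genes hold a spreadsheet error. A fit across samples had been planned and could not be made. Starts were raised by 1 because Cuffdiff counts from 0. The number of genes tested, 12981, was recovered from p and q (Benjamini-Hochberg, q times rank over p) and the method was checked on simulated data. A gene at 0 in 1 group has no fold. Gene lists were matched to RefSeq (GRCr8) by symbol or synonym, and 1070 of 1187 called genes had a RefSeq symbol. Shares of a list are over all its genes, tested or not, unlike the shares of all tested genes given beside them. The carriers and the lists were chosen with earlier results of these data known. Genes named were the 7 carriers, up to 4 called members of each list by size of change, the other called solute carriers by size of change and nearest level, and Slc1a2, Slc1a3 and Gfap. Other genes named as not called, Ptprc and the nearest called genes along the chromosome were chosen after the data were seen. Some genes that this rule takes are not reported here. Python 3.11.15, pandas 2.3.3 and matplotlib 3.10.9 were used.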

Additional observations from a re-analysis of the deposited data

How the results depend on the processing

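At q below 0.01, 1 of the 7 carriers was called higher and 0 lower, and 3 higher and 2 lower solute carriers were left. Slc17a5 kept its call, and the calls of Slc11a1 (log2 change 4.09), Slc2a9 (2.01), Slc7a8 (0.81), Slc39a12 (0.80), Slc4a4 (0.78) and Slc35a2 (-1.28) were lost, their log2 changes being the same values by construction. With a log2 change of at least 1 required (genes listed at 0 in 1 group counted as past it), 3 carriers were higher and Slc35a2 remained lower. With a level of at least 5 FPKM in the higher group, 5 carriers were higher and the lower solute carriers numbered 3. A level of at least 1 FPKM changed no count. The median log2 change of the called solute carriers ranged from 0.77 with log2(FPKM + 1) to 1.21 at q below 0.01. Adding 1 or 0.1 FPKM to both levels shrinks a log2 change and by construction cannot turn its direction. The log2 change of Slc11a1 became 2.84 with 1 FPKM added and 3.89 with 0.1 FPKM added. No paired analysis was possible because the deposited columns hold pooled levels and carry no replicate number, and for the same reason no replicate was left out and no count test was run. The depth of each sample is unknown, so the precision of a level is known through the authors' p and q alone.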
